A study of Mus musculus with 4 samples.

Results

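A small set of mouse embryonic stem cells (mESC) carried transcripts that are typical of the two-cell embryo. They were selected on the unique molecular identifiers (UMIs, counted RNA molecules) of 6 genes, Zscan4c, Zscan4d, Zscan4f, Tcstv3, Usp17lc and Zfp352, and any kept cell with at least 1 UMI summed over these genes was a member. Kept cells are those that passed the filter described by the study as applied here, with UMIs and detected genes each at or above the mean minus 1 SD of their library and at most 10% mitochondrial UMIs. The rule found 86 cells among 31989 kept cells, a share of 0.269% with an exact 95% binomial interval of 0.215 to 0.332%. Of these, 48 held exactly 1 UMI and 38 held 2 or more, which is 0.119% of kept cells (0.0841 to 0.163%). The remaining 31903 kept cells held 0 UMIs of the 6 genes by construction and served as the comparison. Because the 6 genes chose the members, their own levels are given only as a description. Other genes of the same embryonic programme were high in the cells with 2 or more UMIs but not in most of those with exactly 1. These genes were listed with earlier results of these data known, so their levels are a description and no independent check.

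The cells came from droplet sequencing of transcript 3′ ends (Chromium 3′, version 3 chemistry) in E14tg2a.4, a male mESC line, and in Srrm2 hKO, a heterozygous line made from it by a gene trap that truncates Srrm2, a gene for a splicing protein. The labels list 4 samples, 2 WT and 2 Srrm2 hKO, grown for 24 h or 72 h without serum and with LIF, a choice of durations that is not resolved by sample. The methods of the study name a different duration for the single-cell cultures of both lines, and the heterozygous line is 1 clone. In the joined matrix each barcode carries a library number from 1 to 4 that no label or file ties to a sample. The libraries are therefore named by number, WT was not compared with Srrm2 hKO, and the matrix counts as 1 pooled sample without replicate error. No test was made, and every interval covers counting error only.

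Two-cell-like cells appear spontaneously and transiently in mESC cultures. In the mouse, zygotic transcription starts mainly at the two-cell stage, when the transcription factor DUX switches on gene families such as Zscan4, Tcstv, Usp17l and Eif1a-like genes together with endogenous retroviral elements of the MERVL type. Cells in culture that re-enter this programme are known to be low in pluripotency proteins while their pluripotency transcripts persist to varying degrees. Several chromatin repressors, among them TRIM28, the CAF-1 assembly factor and KDM1A, are known to hold the programme silent, and DPPA2 and DPPA4 are known to activate Dux.

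Kept cells numbered 7464 to 8514 per library, with 166839268 to 200180473 UMIs. The 86 members held 1880072 UMIs, of which 723933 were in the 38 cells with 2 or more rule UMIs. The 4 libraries held 19, 26, 28 and 13 members. Their share of kept cells was highest in library 3, with 0.355% (0.236 to 0.512%), followed by 0.305% for library 2 (0.20 to 0.447%) and 0.234% for library 1 (0.141 to 0.365%). Library 4 was lowest with 0.174% (0.0928 to 0.298%), and the intervals of all pairs of libraries overlapped. Cells with 2 or more UMIs were spread less evenly, with 9, 7, 18 and 4 cells. Library 3 thus held 0.228% (0.135 to 0.360%) and library 4 held 0.0536% (0.0146 to 0.137%), again with overlapping intervals. Cells with exactly 1 UMI numbered 10, 19, 10 and 9. Among kept cells, 105 of 31883 barcode sequences occurred in more than 1 library, and 0 of the 86 members shared a barcode with another library.

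**Figure D1:**
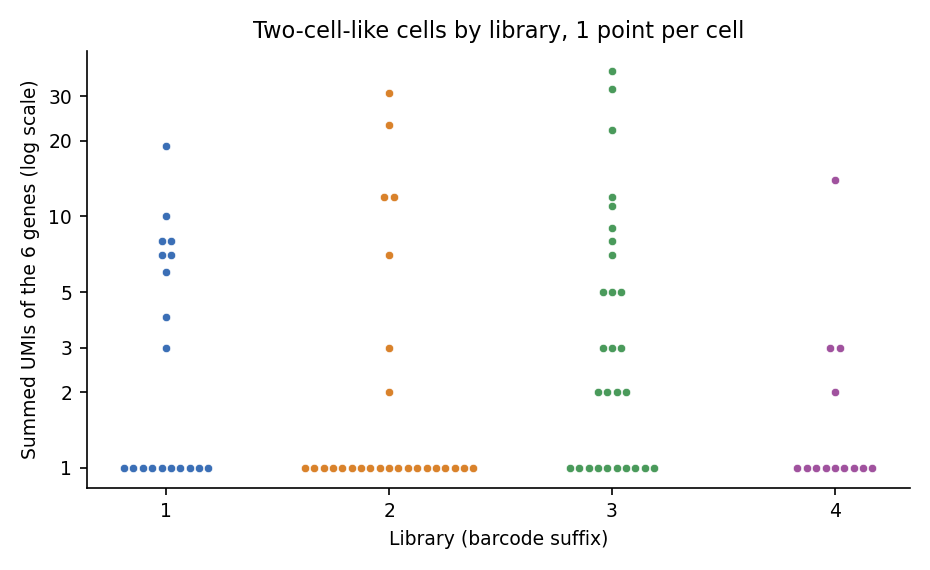
Members by library number. The points show, for each of the 4 libraries, the summed UMIs of the 6 genes in each member cell. Library 3 held the most cells with 2 or more UMIs (18) and library 4 the fewest (4).

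The UMIs of the 6 genes were concentrated in few cells. Among cells with 2 or more, 32 held at least 3, 24 held at least 5 and 12 held at least 10. These 12 cells carried 236 of the 403 UMIs of all members, or 58.6%. The median cell with 2 or more held 7 UMIs and the highest cell, in library 3, held 38. Just inside the limit of the rule lay the 48 cells with 1 UMI and just outside it the 31903 cells with 0.

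Zscan4 genes encode zinc finger proteins of the two-cell embryo that are known for a role in telomere lengthening and genome stability. The 3 Zscan4 genes of the rule lie in 1 cluster on chromosome 7 (GRCm38), and their start-site regions are shown because the copies are nearly identical there. The windows, from RefSeq (GRCm38.p6), run from 250 bases before to 50 bases after the annotated start and are written 5′ to 3′ on the strand of the gene. In the Zscan4c window (chr7:11005495-11005794, plus strand) the capitals mark TATAAA. In the windows of Zscan4d (chr7:11166099-11166398, minus strand) and Zscan4f (chr7:11397665-11397964, plus strand) the capitals mark bases that differ from Zscan4c in an ungapped alignment.
Zscan4c: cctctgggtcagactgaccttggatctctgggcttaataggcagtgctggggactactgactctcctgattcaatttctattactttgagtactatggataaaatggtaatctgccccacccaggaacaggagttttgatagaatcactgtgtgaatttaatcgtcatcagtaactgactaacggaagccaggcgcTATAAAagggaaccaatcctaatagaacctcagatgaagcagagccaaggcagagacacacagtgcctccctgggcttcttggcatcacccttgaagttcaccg
Zscan4d: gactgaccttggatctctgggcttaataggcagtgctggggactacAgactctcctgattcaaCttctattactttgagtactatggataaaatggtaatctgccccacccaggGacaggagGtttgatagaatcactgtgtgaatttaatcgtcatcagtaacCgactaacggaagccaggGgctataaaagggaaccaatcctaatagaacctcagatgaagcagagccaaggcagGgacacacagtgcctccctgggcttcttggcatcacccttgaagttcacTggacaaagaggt
Zscan4f: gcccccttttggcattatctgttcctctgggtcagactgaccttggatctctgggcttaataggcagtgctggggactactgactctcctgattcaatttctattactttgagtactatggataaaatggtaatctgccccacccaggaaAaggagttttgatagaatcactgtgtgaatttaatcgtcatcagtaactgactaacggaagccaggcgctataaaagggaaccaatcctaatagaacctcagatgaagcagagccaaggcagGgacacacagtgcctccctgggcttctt
Over the aligned stretches, Zscan4d matched Zscan4c at 281 of 289 bases (97.2%) and Zscan4f at 275 of 277 (99.3%). TATAAA also stood in the Zscan4d, Zscan4f and Usp17lc windows, and 8.32% of the 32851 RefSeq windows of this length held it on the strand of the gene. RefSeq windows were found for 5 of the 6 rule genes.

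Zscan4c (positions 11005745 to 11010547, plus strand) contributed most UMIs, 115 in 39 cells, with up to 13 in a cell. Zscan4d (11161374 to 11166159, minus strand) had 101 UMIs in 33 cells, and Zscan4f (11397915 to 11402318, plus strand) only 4 UMIs in 4 cells. These 3 counts are uncertain as values of single genes. Of the 60-base stretches in the last 500 bases of the annotated transcripts, 60.8% of those of Zscan4c, 44.7% of those of Zscan4d and 80.5% of those of Zscan4f also occur in transcripts of other genes, mainly other Zscan4 copies. A 3′ library reads this part of a transcript.

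Usp17lc, a ubiquitin-specific protease gene in a second cluster of chromosome 7 (103415072 to 103419880, plus strand), had 107 UMIs in 36 cells and the highest count of a rule gene in any cell, 17. Tcstv3, a gene of the Tcstv family on chromosome 13 (120316878 to 120318178, plus strand), had 39 UMIs in 17 cells. Zfp352, a zinc finger gene on chromosome 4 (90218820 to 90225702, plus strand), had 37 UMIs in 19 cells. Their 3′ ends shared less with other genes, at 4.99%, 15.8% and 1.85% of stretches. In the cells with 2 or more UMIs the levels as UMIs per 1000000 (CPM) were 141 for Zscan4c, 131 for Usp17lc, 127 for Zscan4d, 47.0 for Tcstv3, 38.7 for Zfp352 and 5.53 for Zscan4f. The Zscan4f level rests on 4 UMIs, and Zfp352 was at 20.6 CPM without library 3. The intervals of Zscan4c (115 to 171), Usp17lc (106 to 160) and Zscan4d (102 to 156) overlapped. Of the 38 cells, 5 had UMIs of 1 rule gene, 16 of 2, 8 of 3, 6 of 4 and 3 of 5, and 0 cells had all 6. Zscan4c and Zscan4d were found together in 18 cells.

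To read the state of the members on genes that the rule did not use, a list of other two-cell-like genes was summed. It was chosen with earlier results of these data known, and 50 of its 55 genes were found in the matrix. The 45 that lie more than 5 Mb from every rule gene, here called distant genes, are the cleaner reading, because neighbouring copies can share reads. In cells with 2 or more rule UMIs the distant genes summed to 3589 CPM (exact 95% Poisson interval 3452 to 3729), against 11.5 CPM in all other cells, a ratio of 312 (298 to 326). All 38 cells had distant UMIs, from 8 in the lowest cell through a median of 54 to 220 in the highest, and 37 of 38 had 10 or more. The sum did not rest on all distant genes. Gm8300, Gm5039 and Gm5662, of 1 cluster on chromosome 12, gave 608, 356 and 340 of the 2598 distant UMIs. The genes Tdpoz1 to Tdpoz5, Khdc1a, Khdc1b, Rfpl4, Rfpl4b, Gm6763, Gm13057, Gm8332, BC061212, Trim43c and Zfp750 had 0 UMIs in the 38 cells. By library the level was 4726, 5053, 3485 and 1401 CPM for libraries 1 to 4. It was lowest in the 4 cells of library 4. The 11 further copies of the rule genes found in the matrix summed to 1187 CPM against 0.191 CPM. All 50 other two-cell-like genes together summed to 6512 CPM. They took from 0.0380 through a median of 0.710 to 3.29% of the UMIs of a cell.

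Cells with exactly 1 UMI of the rule genes looked different. Of the 48, 37 had 0 distant UMIs, 7 had 1 to 9 and 4 had 10 or more, and the summed level was 118.5 CPM (99.5 to 140.1). A single cell of library 1, with 9430 UMIs of which 378 were other two-cell-like UMIs, held 84.0% of such UMIs in this class. Calcoco2 and Zfp750, chosen after their values were seen, made up most of the distant UMIs of the 31903 cells without a rule UMI. Without these 2 genes the distant level was 3571 CPM at 2 or more UMIs, 105.5 CPM at exactly 1 and 1.5 CPM at 0. In library 2, the 19 cells with exactly 1 UMI then had 0 distant UMIs, which allows up to 7.27 CPM. In all, 41 of the 86 members (47.7%), or 0.128% of kept cells (0.0920 to 0.174%), had 10 or more distant UMIs. The results below therefore describe mainly the cells with 2 or more UMIs. Values hold for the whole set of 86 only where this is stated.

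**Figure D2:**
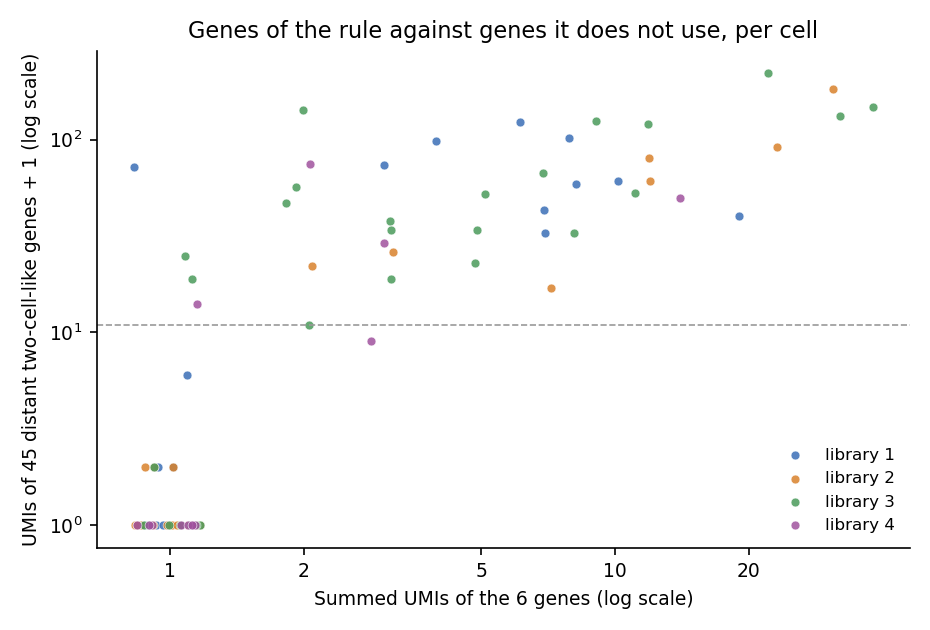
UMIs of the distant genes, which the rule did not use, against UMIs of the 6 rule genes in each of the 86 members. Both axes are logarithmic, the y axis shows UMIs plus 1, points are jittered along x and coloured by library, and the dashed line marks 10 distant UMIs. Most cells with 1 rule UMI lie at the bottom (37 of 48 at 0), whereas 37 of 38 cells with 2 or more reach the line.

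A gene was called at a CPM ratio of at least 2 or at most 0.5 against all other cells. Genes for which at least 20 UMIs would be predicted in the members could be called in both directions. The prediction used the level pooled over the members and the other cells, so UMIs of the members could lift a gene to this limit. Rarer genes could be called only as higher, with at least 20 UMIs seen. In the cells with 2 or more rule UMIs, 43 of 4360 readily counted genes were higher (0.986%) and 215 were lower (4.93%). Of the 20473 rarer genes, 221 were higher (1.08%). Among these 221 were 20 of the 45 distant genes. In the whole set of 86, 36 of 7139 were higher (0.504%), 32 were lower (0.448%), and 164 of 17697 rarer genes were higher (0.927%). Both counts of rarer genes include 5 rule genes, which are at 0 in the other cells by construction. Between the classes, 14 of the higher genes, 1 of the lower genes and 134 of the rarer genes were shared. Such counts depend on the limit of 20 predicted UMIs, which fewer genes reached at 2 or more UMIs. All 36 higher and 164 rarer genes of the set of 86, and 31 of its 32 lower genes, kept their direction at 2 or more UMIs. The smaller set is part of the larger, so this is a description. The median log2 ratio of all readily counted genes was -0.24 at 2 or more UMIs and -0.10 in the set of 86. When ratios were divided by their median, the calls at 2 or more UMIs became 82 higher and 97 lower, so the excess of lower genes depends on the scaling. Ratios below are on the CPM scale and are to be read against these medians.

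The 221 rarer genes were selected for being higher in the cells with 2 or more rule UMIs, so their summed levels are a description. They took 2.18% of the UMIs of these cells and 0.182% of those of other cells. Of the 221 genes, 59 lay in clusters, taken as at least 3 called genes with gaps of up to 2 Mb. The share of all genes in such clusters is not given. Some clusters held genes outside the two-cell-like lists, such as Btg2, Cacna1s and Kif14 on chromosome 1. In 2 of the clusters lay 14 of the called genes. On chromosome 13, between 119912095 and 120318178, the 7 genes Gm21761, B020031M17Rik, Gm20767, Gm21818, AF067061, BC147527 and the rule gene Tcstv3 summed to 4760 CPM against 0.542 CPM. On chromosome 12, between 87514316 and 88324026, 7 genes of the Eif1a-like family (Gm8300, Gm4027, Gm2016, Gm2022, Gm2035, Gm5662 and Gm5039) summed to 2142.5 CPM against 0.503 CPM. Gm2035 was named after its values were seen. The Zscan4 cluster of chromosome 7, with 5 called genes between 11005745 and 11614112, summed to 467 CPM. These sums include rule genes and leave out genes of the clusters that were not called.

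Gm21761 (chromosome 13, 119912095 to 119929272, minus strand) was the most abundant two-cell-like transcript. UMIs of it were in 35 of the 38 cells, with 0 UMIs in the lowest cell, a median of 34 and 252 in the highest. The level was 2343 CPM, against 0.25 CPM in other cells. In cells with exactly 1 rule UMI it was 245 CPM, but 1 cell held 277 of these 283 UMIs and 4 of the 48 cells had any. By library it was 2303, 5967, 1961 and 678 CPM in libraries 1 to 4. The libraries differed widely, but the lowest of them stood far above the other cells of any library, which reached at most 0.340 CPM. Gm20767 (837 CPM), Gm21818 (858 CPM) and B020031M17Rik (575 CPM, in 22 of 38 cells) of the same cluster stood at 0.111, 0.108 and 0.0562 CPM in other cells. Gm21761 and Gm20767 share 55.2% of their 3′ stretches with other genes and their split is uncertain, whereas B020031M17Rik shares 0.158%.

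Among the Eif1a-like genes, related to a translation initiation factor and expressed in the two-cell embryo, Gm8300 was highest with 840 CPM. It was found in 36 of 38 cells, with a median of 13.5 UMIs and a maximum of 50. Gm5039 reached 492 CPM and Gm5662 469.7 CPM, against 0.119 and 0.121 CPM in other cells. Gm2016 (167 CPM) and Gm4027 (109 CPM) were lower. For Gm4027 every 3′ stretch recurs in other genes, and the shares were 86.4% for Gm2016, 71.2% for Gm5662 and 24.6% for Gm5039, so their single values are uncertain. For Gm8300 the share was 6.80%. Gm8994, on chromosome 6, reached 349 CPM in 30 of 38 cells and shares 49.9% of its stretches.

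Duxf3 belongs to the Dux gene array of chromosome 10, the source of the factor that opens the programme. Its start-site window and that of Gm21761 are shown because both hold GATTNAATC, letters of the site attributed to the DUX protein. GATTNAATC, which reads the same on both strands, is in capitals in the windows of Gm21761 (chr13:119913419-119913718, minus strand) and Duxf3 (chr10:58233040-58233339, minus strand), from RefSeq (GRCm38.p6). The RefSeq starts differ from the gene positions used for the counts. That of Gm21761 lies inside the span given above, away from its end, and that of Duxf3 lies beyond the end of its span at 58232675.
Gm21761: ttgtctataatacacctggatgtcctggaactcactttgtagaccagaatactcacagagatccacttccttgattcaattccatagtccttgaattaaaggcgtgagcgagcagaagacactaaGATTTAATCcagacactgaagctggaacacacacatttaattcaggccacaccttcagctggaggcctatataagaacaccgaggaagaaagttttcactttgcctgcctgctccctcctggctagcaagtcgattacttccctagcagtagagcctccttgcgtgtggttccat
Duxf3: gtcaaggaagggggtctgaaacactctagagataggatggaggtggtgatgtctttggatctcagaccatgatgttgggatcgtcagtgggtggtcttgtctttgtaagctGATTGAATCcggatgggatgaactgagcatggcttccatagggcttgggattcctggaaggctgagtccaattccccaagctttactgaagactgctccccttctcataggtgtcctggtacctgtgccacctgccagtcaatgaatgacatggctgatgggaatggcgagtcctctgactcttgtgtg
Of all 32851 start-site windows, 88 (0.268%) held GATTNAATC. Of the 221 rarer genes that were higher, 146 had a window, and 5 of them held it (AF067061, Duxf3, Esp24, Gm21761 and Gm4340), which is 3.42% of these genes against 0.307% of all genes. It was found for 0 of 37 readily counted higher genes and 0 of 170 lower genes with a window. The 5 rarer genes are not all separate cases. AF067061 and Gm21761 lie in the same cluster, and 17.3% of the 3′ stretches of Gm21761 recur in AF067061. TGCACAC, letters of the site attributed to ZSCAN4 and searched on both strands, was in the windows of 9 of the 146 rarer genes, 2 of the 37 higher genes and 10 of the 170 lower genes, which is 6.16%, 5.41% and 5.88% of these genes against 5.02% of all genes. These are matches of letters and no measure of binding.

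Duxf3 itself was rare but present. At 2 or more rule UMIs it was found in 18 of 38 cells with at most 5 UMIs, and its level was 45.6 CPM against 0.0183 CPM in other cells, where 12 of 31903 cells had a UMI. By library it was 75.5, 42.5, 46.9 and 8.81 CPM, of which the value in library 4 lies under the floor that 3 counts give there (26.4 CPM). Of its 3′ stretches, 43.9% recur in other genes. Other members of the programme were found in part of the cells. Tmem92, Sp110, Gm12794, Gm4340, Zscan4-ps2 and Arg2 stood at 91.2, 117, 122, 81.5, 109 and 70.4 CPM, each in 19 to 25 of the 38 cells, and none of them exceeded 0.145 CPM in other cells. For Gm4340, 96.8% of 3′ stretches recur in other genes, and 39.9% of those of the rule gene Zscan4c recur in Zscan4-ps2. The single values of Gm4340 and Zscan4-ps2 are therefore uncertain. Usp17la (85.6 CPM) rested on 8 cells, of which 1 held 37 UMIs, and was at 41 CPM without library 4. Without library 3, Sp110 was at 70.6 CPM.

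Some rarer genes outside these families followed the same pattern. Dcc, a netrin receptor gene of axon guidance, was at 174 CPM in 18 of 38 cells and at 0.0225 CPM elsewhere, and its 3′ stretches are shared with 0 other genes. Most of its UMIs came from library 3, and without that library its level was 97.1 CPM. Ccl3, a chemokine gene, was at 49.7 CPM against 0.00562 CPM. Lmx1a, a homeobox gene of the developing brain, was at 62.2 CPM, and Esp24, an exocrine gland peptide gene, was at 51.1 CPM (82.4 CPM without library 3). In cells with exactly 1 rule UMI, Dcc was at 1.73 CPM and Gm4340, Tmem92 and Gm12794 were at 0.

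**Figure D3:**
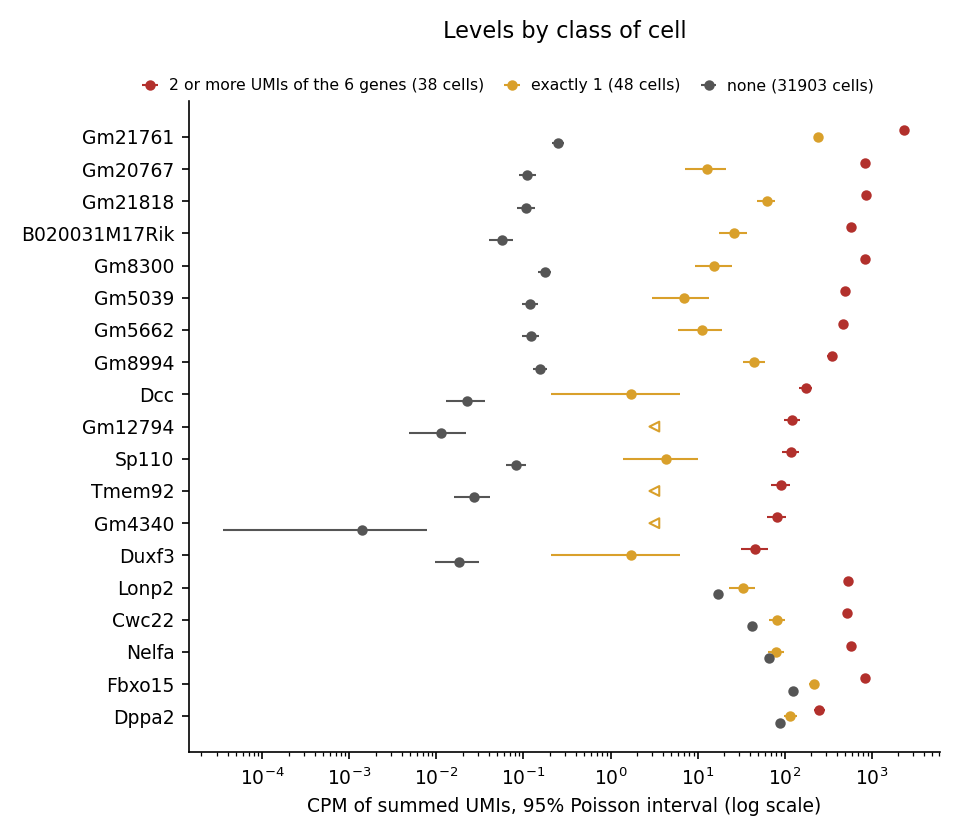
Levels in CPM (logarithmic axis) in cells with 2 or more, exactly 1 and 0 UMIs of the rule genes, with exact 95% Poisson intervals. Two-cell-like genes are shown with other genes that were higher at 2 or more UMIs, among them Dcc, Lonp2, Cwc22, Nelfa, Fbxo15 and Dppa2. Open triangles mark the upper bound of the interval where the count was 0. Gm21761 is highest in cells with 2 or more UMIs, at 2343 CPM, and its value at exactly 1 UMI rests mostly on 1 cell, with 277 of 283 UMIs.

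Genes that ordinary mESC express could also be compared. By predicted UMIs some of them, among them Lonp2, Dcbld1, Uap1 and Mreg, counted as rarer genes at 2 or more rule UMIs. Lonp2, which encodes a peroxisomal protease, was at 532 CPM in the cells with 2 or more rule UMIs and at 17 CPM in other cells, a ratio of 31.2 (28.1 to 34.6). UMIs of it were in 33 of 38 cells, with a median of 9.5 UMIs. By library the level was 604, 862, 560 and 79.3 CPM, against 13.4 to 21.3 CPM in the other cells, and all 4 member values lay above all 4 of the others. Cwc22, a splicing factor that links the spliceosome to the exon junction complex, was at 528 against 42.3 CPM, a ratio of 12.5 (11.3 to 13.8). Its library values were 672, 968, 448 and 264 CPM, all above the 34.8 to 48.9 CPM of the other cells. Zfp516, a zinc finger gene, had a ratio of 12.1 (10.0 to 14.5).

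Fbxo15, an F-box gene active in undifferentiated cells, was at 832 CPM against 126 CPM, a ratio of 6.62 (6.1 to 7.18). It was found in 37 of 38 cells, and its library values of 1329, 532, 737 and 819 CPM all exceeded the 98.9 to 148.8 CPM of the other cells. The ratio was 8.66 for Dcbld1, 8.58 for Uap1 (hexosamine synthesis), 6.80 for Glrx2 (a mitochondrial glutaredoxin) and 6.4 for Mreg (melanosome transport). The Mreg value rested on library 3, without which the ratio was 2.03 from 7 UMIs. In the whole set of 86, these ratios were smaller, with 13.2 for Lonp2, 6.00 for Cwc22, 5.59 for Zfp516 and 3.61 for Fbxo15. In the cells with exactly 1 rule UMI the ratio was 1.93 for Lonp2, 1.94 for Cwc22 and 1.72 for Fbxo15, and 1 cell held 19 of the 38 Lonp2 UMIs, 37 of the 95 Cwc22 UMIs and 28 of the 249 Fbxo15 UMIs in each case. Further genes past the limit at 2 or more UMIs, named after their values were seen, were Atf2 (ratio 6.42), a stress-responsive transcription factor, and Gtf2b (3.54), a general transcription factor.

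Activators of the two-cell programme did not move as 1 group. The list of 5 (Dppa2, Dppa4, Dppa3, Nelfa and Trp53) summed to 1224 CPM against 706 CPM, a ratio of 1.73 (1.62 to 1.85), and Nelfa and Dppa2 passed the limit. Nelfa, a subunit of the negative elongation factor and a maternal factor described as acting on Dux, was at 583 against 65.6 CPM, a ratio of 8.89 (8.06 to 9.79). It was found in 36 of 38 cells with a median of 9 UMIs. The library values were 347, 1361.5, 547 and 335 CPM, against 61.8 to 74.2 CPM in other cells.

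Dppa2 and Dppa4 are neighbours on chromosome 16, and their proteins act as a pair, but their transcripts lay on opposite sides of the other cells. Dppa2 (48303908 to 48319723, plus strand) stood against 89.3 CPM in other cells at a ratio of 2.80 (2.40 to 3.24). Its library values of 166, 202, 315 and 167 CPM all exceeded those of the other cells, 62.3 to 109.3 CPM. Dppa4 (48283733 to 48294237, plus strand) was at 62.2 against 120.3 CPM, a ratio of 0.517 (0.377 to 0.692), which does not reach the limit of 0.5, although it did at 0.491 without library 1 and 0.438 without library 3. Its library values of 67.9, 42.5, 70.3 and 44.0 CPM all lay below the 107.7 to 131.6 CPM of the other cells. Against other cells of their own libraries the ratios were 2.57 for Dppa2 and 0.525 for Dppa4. Cells with exactly 1 rule UMI were closer to other cells, with ratios of 1.31 (1.10 to 1.55) for Dppa2 and 0.863 (0.716 to 1.03) for Dppa4. Trp53, whose protein is described as activating Dux after DNA damage, had a ratio of 0.665 (0.572 to 0.769), and Dppa3, a maternal factor named after its value was seen, had 1.46 (1.10 to 1.89). Neither passed the limit. In the whole set of 86, the list of 5 activators had a ratio of 1.29 (1.23 to 1.36), with 1 of 5 genes past the limit.

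Of the repressors, 0 of 24 readily counted genes passed the limit at 2 or more rule UMIs in either direction, beside 0.986% higher and 4.93% lower among all genes. Their sum was 5436 against 6649 CPM, a ratio of 0.818 (0.792 to 0.843), with a median log2 ratio of -0.29 against -0.24 for all genes. The members were not uniform. Trim28, the corepressor of retroviral elements, had a ratio of 1.26 (1.15 to 1.37). Rif1, a replication-timing factor, had 1.09 (0.977 to 1.21), Kdm1a, a histone demethylase, 0.904 (0.765 to 1.06), Ncl, the most abundant member, 0.743 (0.708 to 0.779), and Chaf1a, the large subunit of CAF-1, 0.677 (0.466 to 0.950). Apart from Ncl, these were named after their values were seen.

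**Figure D4:**
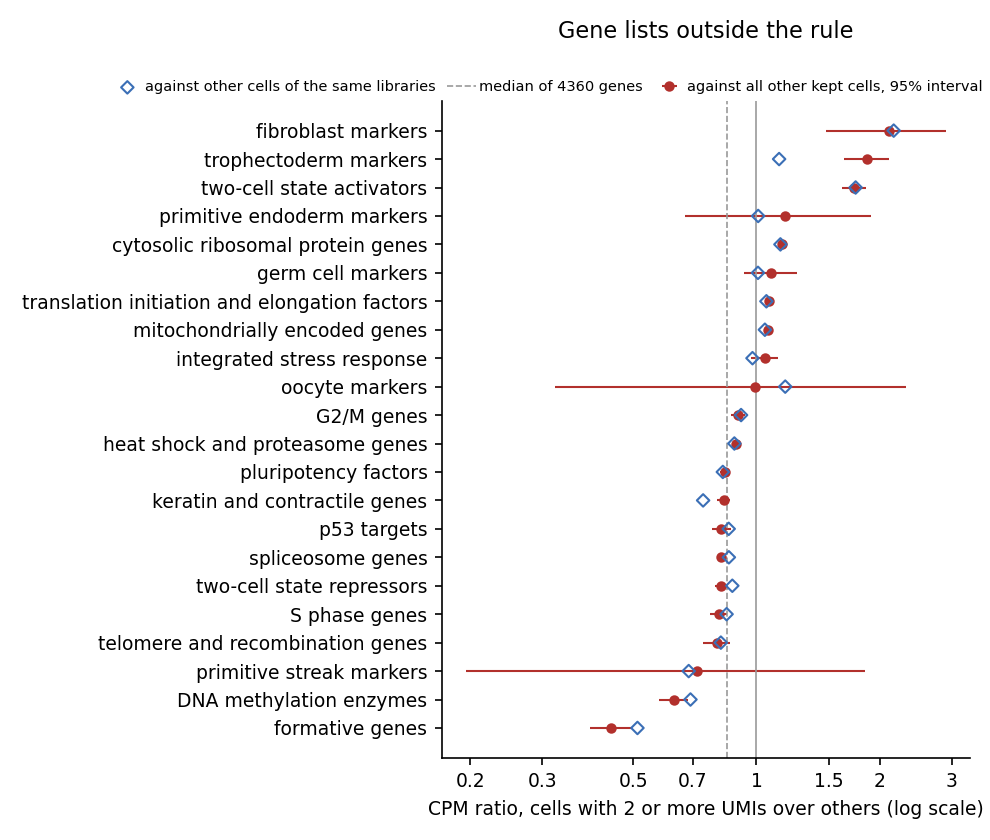
Summed level of each gene list other than the two-cell-like gene lists in cells with 2 or more rule UMIs over the level in all other cells (logarithmic axis) with exact 95% intervals, beside the ratio against other cells of the same library (diamonds). The dashed line marks the median of all readily counted genes. The formative list is lowest, at 0.442, and the fibroblast and trophectoderm lists, with few UMIs or with UMIs from 1 cell, are highest.

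Pou5f1, Sox2 and Nanog, the core pluripotency factors, had ratios below 1 that did not pass the limit. How many of these UMIs come from free RNA was not tested, since these cells include no type that should lack the genes. The list of pluripotency factors had a ratio of 0.838 (0.815 to 0.862), a median log2 ratio of -0.64 against -0.24 for all genes, and 5 of 21 readily counted genes past the limit, all lower, beside a background of 4.93%. The summed ratio lay near the median ratio of all genes, and Dppa5a alone made up 3868 of the 6907 CPM. Pou5f1, which encodes OCT4, was at 517 against 769.9 CPM, a ratio of 0.671 (0.605 to 0.743). It was found in 37 of 38 cells with a median of 6.5 UMIs, and the library values were 453, 499.9, 489.7 and 696 CPM. The other cells of these libraries were at 847, 794, 663 and 773 CPM, so the members were lower in each library.

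Sox2 was at 215 against 359.5 CPM, a ratio of 0.599 (0.509 to 0.701). UMIs were seen in 22 of 38 cells. The library values were 166, 159.6, 216 and 317 CPM, against 419, 407, 307 and 299.9 CPM in other cells, so members were lower in libraries 1 to 3 but not in library 4, where they were 4 cells. Nanog was at 93.9 against 112.5 CPM, a ratio of 0.835 with an interval of 0.648 to 1.06 that includes 1. Klf4 was at 51.1 against 106.4 CPM, a ratio of 0.480 (0.338 to 0.662), and passed the limit. Its library values of 45.3, 10.6, 70.3 and 26.4 CPM were each below those of the other cells of the same library, at 167, 105.5, 107.5 and 48.5 CPM. The value in library 2 is 1 UMI and that in library 4 is 3 UMIs, which is at or under the floor of 3 counts. Zfp42, also called Rex1, had a ratio of 0.640 (0.557 to 0.733). Dppa5a, the most abundant member, had 1.03 (0.995 to 1.07).

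The other pluripotency genes past the limit, named after their values were seen, were Nr0b1 (0.347, 0.218 to 0.526), Lefty1 (0.378, 0.207 to 0.634), Trim71 (0.444, 0.339 to 0.571) and Fgf4 (0.472, 0.305 to 0.696). Nr0b1 encodes a nuclear receptor that binds OCT4, Lefty1 an inhibitor of NODAL, Trim71 an RNA-binding ubiquitin ligase and Fgf4 the ligand that primes cells for differentiation. Klf4, Trim71 and Fgf4 no longer passed when ratios were divided by the median ratio of all genes, whereas Nr0b1 and Lefty1 did. Some of these calls also depended on 1 library. Klf4 was at 0.596, 0.535 and 0.277 without libraries 1, 2 and 3, Fgf4 at 0.527 and 0.564 without libraries 1 and 2, and Lefty1 at 0.245 and 0.523 without libraries 2 and 3. Tdgf1, the NODAL co-receptor, also named after its value was seen, had 0.99 (0.894 to 1.10). At exactly 1 rule UMI, Pou5f1 had a ratio of 1.02 (0.954 to 1.09), Sox2 1.04 (0.944 to 1.14), Klf4 1.23 (1.04 to 1.44) and Nanog 1.23 (1.05 to 1.44). In the whole set of 86, the list of pluripotency factors had a ratio of 0.95 (0.934 to 0.965). There 0 of 23 genes were past the limit, beside 0.448% of all genes that were lower.

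Cells with 2 or more rule UMIs had a lower median depth than other cells in libraries 1, 2 and 4 but not clearly in library 3 (19222 against 19403 UMIs), so shares of cells were also compared after each cell was thinned to 5000 UMIs. Sox2 was then found in 42.1% of cells with 2 or more rule UMIs (26.3 to 59.2%) against 76.8% of other cells, and Pou5f1 in 81.6% (65.7 to 92.3%) against 96.4%. Without thinning, the shares were 57.9% against 95.5% for Sox2 and 97.4% against 99.4% for Pou5f1. Nanog was found in 23.7% (11.4 to 40.2%) against 39.98%, and the interval reaches just above the share of the other cells. In the other direction, Nelfa was found in 78.9% against 27.8% and Lonp2 in 73.7% against 8.21% of thinned cells.

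**Figure D5:**
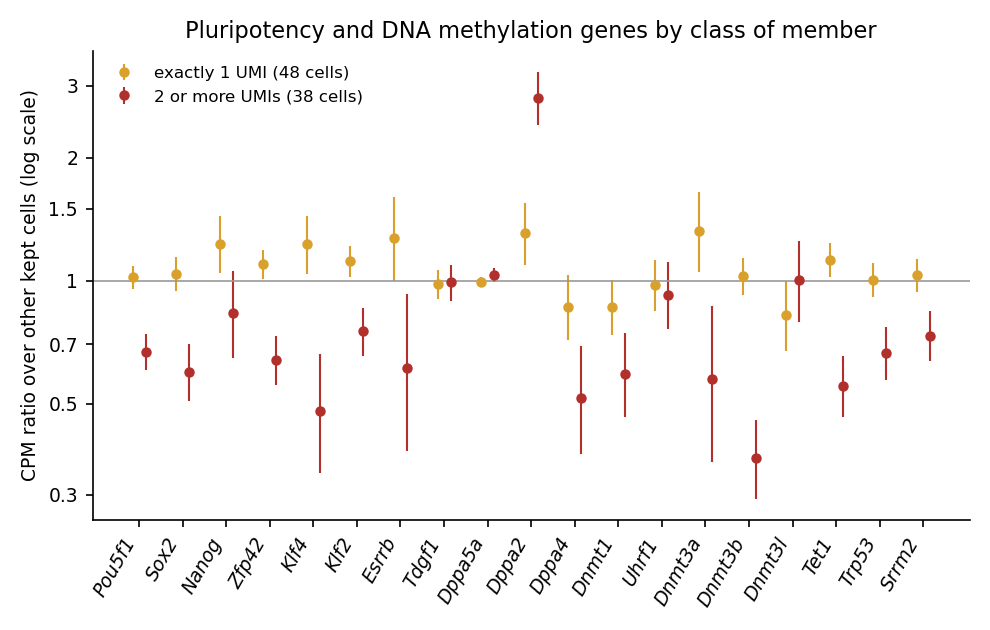
CPM ratios of pluripotency and DNA methylation genes, with Trp53 and Srrm2, over all other cells (logarithmic axis). Cells with 2 or more and with exactly 1 rule UMI are shown apart, with exact 95% intervals. At 2 or more UMIs most genes lie below 1, among them Dnmt3b at 0.369. At exactly 1 UMI most intervals include or lie near 1.

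Formative genes, which rise as cells leave the naive state, were the lowest of the lists. They summed to 385 against 872 CPM, a ratio of 0.442 (0.392 to 0.497), the median log2 ratio was -1.16, and 5 of 9 readily counted genes were past the limit, all lower, beside 4.93% of all genes. Dnmt3b, a de novo DNA methyltransferase, was at 113 against 307 CPM, a ratio of 0.369 (0.293 to 0.457), and was found in 19 of 38 cells. The libraries themselves differed in this gene, with 79.6, 393, 146 and 587 CPM in other cells. The members were at 22.6 (3 UMIs, at the floor), 42.5, 135 and 203 CPM. They were lower in each library, but by little in library 3, which held 52 of the 82 UMIs. The ratio against own libraries was 0.482 for Dnmt3b and 0.512 for the list. The other 4 genes past the limit, named after their values were seen, were Zic2 (0.20), Tcf7l1 (0.223), Tcf15 (0.431) and Foxp1 (0.446), all transcription factors. After division by the median ratio Tcf15 and Foxp1 no longer passed, and Dnmt3b, Zic2 and Tcf7l1 did. Tcf15 and Foxp1 also lay just outside the limit without library 2 (0.528 and 0.528) or library 3 (0.503 and 0.514), and Tcf7l1 was at 0.0535 without library 3. Otx2 changed its ratio from 0.618 to 0.854 against own libraries, and Pou3f1 from 0.559 to 0.631. These genes were also named after their values were seen. Both passed the limit when 1 library was left out, Otx2 at 0.401 without library 4 and Pou3f1 at 0.335 without library 3. In the whole set of 86, the formative list had a ratio of 0.823 (0.780 to 0.868). There 0 of 11 genes were past the limit, beside 0.448% of all genes that were lower.

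Among DNA methylation enzymes, 1 of 8 passed the limit, Dnmt3b, beside 4.93% of all genes that were lower. Dnmt1, the maintenance methyltransferase, had a ratio of 0.591 (0.463 to 0.743), and its library values of 60.4, 127.6, 106.8 and 105.7 CPM were below the 158.7 to 182.7 CPM of the other cells. Uhrf1, its recruiter, had 0.923 (0.761 to 1.11). Dnmt3a, a de novo methyltransferase, had 0.574 (0.359 to 0.869) and Dnmt3l, the catalytically inactive cofactor, 1.00 (0.795 to 1.25) or 0.758 without library 3. The intervals overlapped. Tet1, a methylcytosine dioxygenase, had 0.553 (0.463 to 0.654), with 176 to 211 CPM in the libraries against 299 to 386 CPM. The list summed to a ratio of 0.628 (0.577 to 0.682), or 0.690 against own libraries. In the whole set of 86 its ratio was 0.866 (0.828 to 0.904). There 0 of 9 genes were past the limit, beside 0.448% of all genes that were lower.

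The size of these differences varied with the depth of the members. The 38 cells had a median of 16014 UMIs, 0.80 of the median of their library, and 25 lay below that median. By library the median was 0.787, 0.551, 0.991 and 0.638 of that of the library, so library 3, with 18 of the 38 cells, hardly differed in depth. In all, 3 of the 38 lay over 2 times it, and the 48 cells with exactly 1 had a median of 21810 UMIs and the other cells 20339. Detected genes fell in the same order, with medians of 3860.5 at 2 or more UMIs, 4418.5 at exactly 1 and 4377 in other cells. At 5000 UMIs per cell the medians were 1815.5, 1923.5 and 1944 genes. The mitochondrial share had a median of 5.28% at 2 or more UMIs, 4.82% at exactly 1 and 4.39% in other cells. It was higher than in other cells in libraries 1 to 3 and lower in library 4, with 2.36% in 4 cells against 3.51%. Cytosolic ribosomal protein genes had a ratio of 1.15. Mitochondrially encoded genes had 1.07 over all libraries, but 18303 against 34647 CPM in library 4. When 13 members at or above the median of their library and 25 below it were set against other cells of the same range, the formative ratio was 0.578 (0.503 to 0.662) and 0.260, the DNA methylation ratio 0.749 and 0.472, and the S phase ratio 0.926 and 0.661. The pluripotency ratio moved less, with 0.875 and 0.785. Libraries were spread unevenly over this split, with 7 of 9, 6 of 7, 9 of 18 and 3 of 4 members of libraries 1 to 4 below the median. Against own libraries the ratios were 0.646 and 0.318 for formative genes, 0.841 and 0.509 for DNA methylation, 0.977 and 0.682 for S phase and 0.906 and 0.738 for pluripotency. The distant genes stood at 2246 CPM in the deeper and 5292 CPM in the shallower members. The part of depth, RNA content and library in these ratios was not tested.

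Other lists stayed near the background. S phase genes had a ratio of 0.809 (0.772 to 0.847), with 1 of 19 genes past the limit (Ccne1, cyclin E, 0.451), and G2/M genes 0.901 (0.867 to 0.936), with 1 of 20 (Mki67, 0.454). Spliceosome genes had 0.819 (0.799 to 0.840) with 0 of 35, and Srrm2 had 0.733 (0.636 to 0.841), or 0.875 against own libraries. Translation factors had 1.07 (1.05 to 1.09) with 0 of 25, and heat shock and proteasome genes 0.891 (0.876 to 0.907) with 0 of 17. Telomere and recombination genes had 0.799 (0.739 to 0.862) with 1 of 10 (Blm, a RecQ helicase, 0.462). Ccne1, Mki67 and Blm were named after their values were seen. None of the 3 passed after division by the median ratio, and Ccne1 (0.536) and Blm (0.661) did not pass without library 3 nor Mki67 (0.515) without library 4. Each list thus had 0 or 1 gene past the limit, beside the 4.93% of all readily counted genes that were lower.

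Targets of p53 had a ratio of 0.822 (0.779 to 0.865) with 0 of 13 past the limit. Among its rarer genes, Btg2, an antiproliferative gene, was higher at 70.4 CPM, a ratio of 2.69 (2.00 to 3.54). Pmaip1, the apoptosis gene NOXA, was at 26.2 against 4.48 CPM, a ratio of 5.85 (3.52 to 9.16), from 19 UMIs, 1 fewer than the limit for rarer genes. Cdkn1a had 0.785 (0.472 to 1.23) and Mdm2 1.14 (0.807 to 1.57), and both intervals include 1, with Mdm2 at 1.90 without library 3. The integrated stress response list was near other cells, at 1.05 (0.971 to 1.13). Within it Xbp1 was lower (0.361) while the rarer genes Ppp1r15a (2.26) and Ddit4 (2.05) were higher. Ddit4 was at 1.74, 3.14 and 1.53 without libraries 2, 3 and 4. Btg2, Xbp1, Ppp1r15a and Ddit4 were named after their values were seen.

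Markers of other cell types were summed to see whether the members held a second cell type. Primitive endoderm markers had a ratio of 1.17 (0.670 to 1.90), primitive streak markers 0.718 (0.195 to 1.84) and oocyte markers 0.994 (0.323 to 2.32), the last pair from 4 and 5 UMIs. Without library 3 the streak markers were at 0 and the oocyte markers at 0.388, and without library 2 the oocyte markers were at 1.56. Trophectoderm markers had 1.86 (1.64 to 2.10), but 101 of 115 Krt8 UMIs and 115 of 122 Krt18 UMIs came from a single cell in each case, and the ratio was 1.14 against own libraries and 0.593 without library 3. Fibroblast markers had 2.10 (1.48 to 2.90) from 37 UMIs, of which Fbln1 had 23, Thy1 9, Vcam1 4 and Col1a2 1. Without Fbln1 the ratio was 2.80 (1.53 to 4.70) from 14 UMIs. Col1a1, Col3a1, Lum, Dcn, Postn and Pdgfrb were at 0, but their level in other cells predicts only 1.55 UMIs in all, so these zeros are not informative at this depth. Apart from Fbln1, these genes were named after their values were seen. Keratin and contractile genes had 0.833 (0.803 to 0.863). Against own libraries the ratio was 0.741, and without library 3 it was 0.691. It was 1.01 (0.972 to 1.06) in the 13 members at or above the median UMIs of their library and 0.584 (0.545 to 0.626) in the 25 below it. Against own libraries these 2 ratios were 0.825 and 0.586.

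Germ cell markers as a list were near other cells, at 1.09 (0.934 to 1.25), but Dazl, an RNA-binding gene of germ cells, was at 45.6 against 3.75 CPM, a ratio of 12.1 (8.34 to 17.1), and at 28.7 CPM without library 1. Mael, a gene of the piRNA pathway, had 3.24 (1.98 to 5.01), or 2.40 without library 3, and Tfap2c, a transcription factor of the germ line and trophoblast, 0.369 (0.177 to 0.678), both named after their values were seen. Over the 20 lists outside the two-cell-like genes, without the ribosomal protein and mitochondrially encoded genes, 3 of 216 readily counted genes were higher and 15 were lower at 2 or more UMIs, beside 0.986% and 4.93% of all genes, and the set of 86 had 1 higher (Nelfa) and 1 lower (Acta2) of 243. The higher genes were Nelfa, Dppa2 and Krt18, the last named after its value was seen and at 0.179 without library 3. Of 82 readily counted ribosomal protein genes 1 was also higher, Rpl39l (2.63, 2.02 to 3.36), named after its value was seen, and of 13 mitochondrially encoded genes 0 passed the limit. The 10 readily counted genes with the lowest ratio in the set of 86 rested on few UMIs, from 0.121 for Cryab to 0.406 for Elmo1, and included Rpusd3, Acta2, Enpp2, Rhox6, Psors1c2, Sass6, Platr22 and Adck5. Of the 215 lower genes at 2 or more UMIs, 170 stayed at or below 0.5 against their own libraries, and of the 43 higher genes 39 stayed at or above 2.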

How the data were processed

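Single-cell RNA-seq counts of 4 samples (2 WT, 2 Srrm2 hKO) were used as 1 joined matrix of 32285 genes and 41142 barcodes. The deposited values are raw counts of UMIs. The authors aligned the reads to mm10 with Cell Ranger 6.1.2 (name and version also in the submitters' processing notes) and joined the libraries with its aggregation step at default settings, which evens out read depth between libraries. The cell filter of the study was not applied in the deposited matrix and was applied here per library (UMIs and genes at least the mean minus 1 SD, mitochondrial share at most 10%). It kept 31989 cells, which is not the number of cells that the study states. Library numbers come from the barcode and could not be tied to labelled samples, so no group was compared, no p-value was computed and cells were not used as replicates. No doublet caller was run, and cells above 2 times the median UMIs of their library were left out in an alternative.

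UMIs were summed over members and over other kept cells and given as CPM, with exact Poisson intervals, exact conditional intervals of the ratio and exact (Clopper-Pearson) binomial intervals of shares, all at 95% and for counting error only. A gene was called past a ratio of 2 or 0.5, with at least 20 predicted UMIs, or higher with at least 20 UMIs seen when fewer were predicted. At 2 or more rule UMIs, 3 counts equal 7.81 to 31.9 CPM per library. Positions are from GRCm38 and start-site windows from RefSeq (GRCm38.p6). Scripts ran in Python 3.11.15 with numpy 2.4.6, scipy 1.17.1 and pandas 2.3.3. The calling step was tested on simulated counts with known ratios. These had no spread between cells and no ratios near the limit of 2 or 0.5, so the reliability of such calls was not tested.

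Genes were named by rule, as the rule genes, the two-cell-like genes with at least 20 UMIs, the 20 rarer genes with the highest ratio, the 10 highest and 10 lowest readily counted genes, a fixed set of pluripotency, DNA methylation, Dppa and p53 genes with Srrm2, and the most abundant gene and genes past the limit of each of 23 lists, with ratios of the 86 members. The text describes a selection of these, and genes outside the rule are marked as named after their values were seen. Members and lists were chosen with earlier results of these data known. The list without Calcoco2 and Zfp750, the split by depth, and the alternatives for the cells with 2 or more rule UMIs were added after seeing the data. Of the listed genes, Cml2, Dux, Duxf4, Gm4971, Nat8b and Zscan4a were not found by name, and Ddit3, which is listed under 2 identifiers, was left out.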

Additional observations from a re-analysis of the deposited data

Results flagged for a closer look

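Signal of the 6 rule genes also appeared in barcodes that the cell filter had removed and that no comparison used. Of 9153 removed barcodes, 27 (0.295%) held at least 1 rule UMI and 20 (0.219%, 0.134 to 0.337%) held 2 or more. Among kept cells these shares were 0.269% and 0.119% (0.0841 to 0.163%). Of the 27, 18 were removed by the UMI or gene limit alone and 9 exceeded the mitochondrial limit. Distant genes reached 10 or more UMIs in 20 removed barcodes, of which 19 also held a rule UMI, and the median of these 20 was 4949 UMIs. By library, the 27 barcodes were 7, 2, 13 and 5.

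Among kept cells without a rule UMI, 6 held 10 or more UMIs of the distant genes when Calcoco2 and Zfp750 were left out, with 14 in library 2, 60, 29 and 18 in library 3, and 43 and 17 in library 4. The rule had placed these 6 cells with the comparison cells. With Calcoco2 and Zfp750 in the list there were 36 such cells, and these 2 genes gave 397 of their UMIs.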

How the results depend on the processing

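No paired analysis was possible because library numbers are not tied to the replicate numbers of the labels. Ratios against other cells of the same library are values without a test. Among genes past the limit, direction turned for Krt18 (0.179 at 2 or more rule UMIs without library 3) and Anxa3 (named after its value was seen), of the 32 genes called lower in the 86 members, at 2 or more rule UMIs (1.16), while the other 31 kept theirs. Ratios at 2 or more rule UMIs that were not calls also crossed 1 when 1 library was left out, among them the trophectoderm (0.593), oocyte (1.56), primitive endoderm (0.918), germ cell (0.970) and integrated stress response (0.981) lists, Krt8 (0.941), Cdkn1a (1.07) and Mdm2 (0.908). The share of 0.269% became 0.119% at 2 or more rule UMIs, 0.100% at 3 or more and 0.125% after thinning to 5000 UMIs. Of the 86 members, the 36 higher genes became 81, 15 and 482 at a minimum of 10, 50 and 1 UMIs, 115 and 13 at fold limits of 1.5 and 3, and 69 with the mean of per-cell CPM. The 32 lower genes became 143, 3 and 1109 at these minimums, 297 and 5 at these folds, 65 with per-cell CPM, 20 with scaling by the median ratio, 215 at 2 or more and 192 at 3 or more rule UMIs. The 164 rarer genes became 86 and 1569 at minimums of 50 and 1, and 247 at a fold of 1.5. List genes past the limit, 1 higher and 1 lower, became 3 and 15 at 2 or more, 4 and 13 at 3 or more, and 4 and 3 with per-cell CPM. Scaling gave 2 higher, and 2 or 3 were lower without high-UMI cells or against own libraries. At 2 or more rule UMIs the 43 higher and 215 lower genes became 68 and 388 with per-cell CPM and 82 and 97 with scaling, and 15 lower list genes became 28 and 7.

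Leaving out 1 library at a time gave 18 to 36 higher, 22 to 58 lower and 95 to 161 rarer genes for the 86 members, with the lowest counts of higher and rarer genes without library 3 (18 and 95) and the 58 lower genes without library 2. List genes ranged from 1 to 2 higher and 1 to 4 lower. At 2 or more rule UMIs the ranges were 26 to 40 higher (26 without library 3), 162 to 208 lower and 148 to 214 rarer genes. All other two-cell-like genes (6512 CPM) ranged from 5644 to 7336 CPM, and were at 8564 CPM with per-cell values and 7873 CPM without high-UMI cells. Distant genes (3589 CPM) ranged from 3334 to 3996 CPM, with 4686 and 4397 CPM. At exactly 1 rule UMI (118.5 CPM) they ranged from 61.9 CPM without library 1 to 207 CPM without library 2, with 269 and 149 CPM. Median UMIs (19774) and genes (4228) became 16014 and 3860.5 at 2 or more rule UMIs and 16722 and 3898 over all barcodes, and the mitochondrial median (4.91%) became 5.28% at 2 or more. With 723933 UMIs in 38 cells, depth limits values of genes under about 20 UMIs.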

Other observations

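The start-site windows of Gm21761 and Duxf3 with GATTNAATC were 2 of 88 such windows among 32851, and the search was made with the levels of both genes known. Other rarer genes that were higher at 2 or more rule UMIs lay in clusters not named in the lists. On chromosome 13, 5 histone genes between 22040636 and 23762386 (Hist1h4i, Hist1h3e, Hist1h2bc, Hist1h3c and Hist1h3a) summed to 337 CPM against 71.6 CPM, and 4 genes on chromosome 2 between 150181755 and 150485091 (Gm14139, Gm14124, Gm10130 and Zfp345) summed to 143.7 CPM against 51.9 CPM. On chromosome 8, Neto2, Lonp2 and Gm27167 between 85636588 and 86919422 summed to 642 CPM against 19 CPM, most of it from Lonp2. These clusters were noticed after the values were seen and were not tested.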
